A study of Mus musculus with 8 samples.

Results

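The miRNAs described here are 7 mature products of 5 loci known for their expression in microglia and white blood cells: mmu-miR-142a-3p, mmu-miR-142a-5p, mmu-miR-223-3p, mmu-miR-223-5p, mmu-miR-146a-5p, mmu-miR-155-5p and mmu-miR-150-5p, given below without the prefix for mouse. They were chosen by name and not by a rule on their values, though earlier results of these data were known. The choice was made from the 1915 mature miRNA names that each library lists, and all 7 were above 0 in every library. The 8 small RNA libraries came from prefrontal cortex of 12-week-old C57BL/6 mice, 4 of them Fkbp5 knockout (numbered 1, 2, 4 and 5) and 4 wild type (numbered 1, 2, 3 and 4). The protein made from Fkbp5 works with Hsp90 and restrains the glucocorticoid receptor, the receptor through which steroid hormones damp inflammation. The labels name neither the knockout allele nor the cells it acts in, and they do not say whether each library is a separate animal, so the spread behind each p-value may be technical. Fkbp5 mRNA is not read by this assay, and the knockout was not checked. Library totals ran from 17728879 to 19776148 in the knockout and from 16180699 to 21555993 in wild type, and the libraries held 963 to 1031 and 993 to 1033 miRNAs above 0. The neuronal miRNAs miR-124-3p, miR-128-3p and miR-9-5p summed to between 6230150 and 8226930 in the knockout and between 6251450 and 8202350 in wild type, so neuronal miRNAs were abundant in all 8 libraries. The region within the brain was not checked.

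Microglia are the resident macrophages of the brain, and blood left in vessels adds circulating white cells to a tissue sample. miR-142 is made in cells of the haematopoietic lineage and so marks microglia and leukocytes alike, while miR-223 is typical of neutrophils and other myeloid cells and miR-150 of mature lymphocytes. miR-155 and miR-146a are induced by inflammatory signals through NF-kB: miR-155 promotes the response, and miR-146a, which represses the adaptors Traf6 and Irak1, limits it. A bulk measurement cannot tell fewer cells of a type from less of the miRNA per cell.

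The mature sequences, from RefSeq on GRCm38.p6, the assembly that mm10 names, are shown because the seed decides the targets and because near-identical or overlapping products bear on the values. They run 5′ to 3′, and capitals mark the seed, bases 2 to 8. RefSeq gave a mature sequence for 6 of the 7. miR-142b, which lies opposite miR-142a, and miR-146b-5p are included for comparison.
miR-142a-5p: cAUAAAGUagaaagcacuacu
miR-142a-3p: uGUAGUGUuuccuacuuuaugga
miR-142b: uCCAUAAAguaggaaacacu
miR-223-5p: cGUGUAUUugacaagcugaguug
miR-223-3p: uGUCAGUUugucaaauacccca
miR-155-5p: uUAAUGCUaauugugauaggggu
miR-146a-5p: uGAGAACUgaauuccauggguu
miR-146b-5p: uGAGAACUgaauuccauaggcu
No seed is shared between the 6 sequences of the set, and each of them except miR-146a-5p had a seed found in no other mature sequence of the RefSeq table. miR-146a-5p shares its seed with miR-146b-5p, and 20 of their 22 bases are identical. The differences, with the base of miR-146a-5p first and positions counted from 1 at the 5′ end, are G18A and U21C, both near the 3′ end.

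The loci differ in their setting. The hairpin of miR-142a lies at chr11:87756864-87756927 on the plus strand, in an intron of the non-coding gene Mir142hg by the GENCODE annotation of GRCm38. That of miR-223, at chrX:96242817-96242926 (plus), falls in an exon of the non-coding transcript F630028O10Rik, and that of miR-155, at chr16:84714140-84714204 (plus), in an exon of Mir155hg. The hairpins of miR-146a (chr11:43374397-43374461, minus) and miR-150 (chr7:45121757-45121821, plus) overlap no other annotated gene. The miR-142a hairpin is printed with its 5p and then its 3p product in capitals, since both are measured here:
Mir142: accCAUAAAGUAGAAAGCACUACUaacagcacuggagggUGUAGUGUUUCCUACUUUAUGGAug
All 20 bases of miR-142b lie within the 23 bases of miR-142a-3p on the opposite strand, and miR-142b was at 0 in all 8 libraries. Whether the authors' counting used strand is not given in the sources used here, and without it reads from miR-142a-3p and miR-142b cannot be told apart, so the level of miR-142a-3p is uncertain. No mature miRNA in the table lies opposite the other members that have a sequence.

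Values below are the deposited values, which the file headers call normalized counts, after rescaling between libraries; they have no fixed unit. The members covered a wide range of levels, led by miR-150-5p, which alone made up 76.2% of their summed value. It was at 531 ppm, far above the miR-142a products that mark the haematopoietic lineage (19.6 and 1.84 ppm). Which cells of the tissue miR-150-5p or any other member came from was not tested. The term immune-cell miRNA therefore names the choice of loci and not a measured source. Together the 7 held 631 to 818 ppm of the library total in the knockout and 657 to 743 ppm in wild type. By mean over the 8 libraries the order was miR-150-5p (531 ppm, rank 68 of the 1915 names), miR-146a-5p (136 ppm), miR-142a-5p (19.6 ppm), miR-155-5p (4.74 ppm), miR-223-3p (4.57 ppm), miR-142a-3p (1.84 ppm) and miR-223-5p (0.242 ppm, rank 693). The ranges over libraries of neighbours in this order did not overlap, with the exception of miR-155-5p and miR-223-3p, whose means differed 1.04-fold and whose order held in 5 of 8 libraries. Order between miRNAs also carries how well each sequence is ligated and amplified, which these files do not measure.

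In the comparison of genotypes, which asks whether loss of Fkbp5 alters the level of these miRNAs in the tissue, none of the tested members passed. The test took in each miRNA with a rescaled value of 10 or more in at least 4 libraries. Of the 7 members 6 passed, among 600 miRNAs in all, and miR-223-5p did not. By limma on log2(rescaled value + 1) with Benjamini-Hochberg adjustment at 0.05, 0 of the 6 were called, where 0% of all tested miRNAs were called. Likewise 0 of the 6 had an unadjusted p under 0.05, against 4% of all tested miRNAs (1.33% higher and 2.67% lower in the knockout), and for 0 of the 6 were the groups apart without overlap, against 1.5%. By mean log2 value 3 of the 6 were higher in the knockout (54% of all tested) and 3 lower (46%). Their median difference was -0.16 on the log2 scale, beside 0.02 over all tested miRNAs. The adjusted p was 0.994 by limma for each of the 6. Among miRNAs that mark other cells the tissue could hold, none of them at 0 in all libraries, the epithelium and olfactory list summed to between 240 and 1621 in the knockout and between 399 and 3324 in wild type. Its 3 tested members had a median log2 fold change of -1.18 with wide errors (miR-200a-3p -0.96 ± 0.75, miR-200b-3p -1.18 ± 0.67, miR-429-3p -1.32 ± 0.82, SE). Single libraries were high: miR-200b-3p was at 2280 and 1123 in wild-type replicates 2 and 3 and at 1101 in knockout replicate 5. In the other libraries it lay between 175 and 381. The oligodendrocyte list (3 of 3 lower by mean log2 value, median -0.21) and the choroid plexus list (2 of 2 lower, median -0.17) overlapped between genotypes in their sums. Within the oligodendrocyte list miR-219a-5p, the lowest of the list, did not overlap, as was so for 1.5% of all tested miRNAs. It was at 27.7, 29.3, 21.5 and 30.1 in knockout replicates 1, 2, 4 and 5, against 39.5, 50.7, 34.5 and 42.1 in wild-type replicates 1, 2, 3 and 4 (log2 fold change -0.60 ± 0.21, not past adjustment). The far more abundant miR-219a-2-3p (-0.15 ± 0.14) and miR-338-3p (-0.21 ± 0.13) overlapped between genotypes. The part of these lists in the members' values was not tested. The 95% interval excluded a 2-fold change in either direction for 5 of the 6 and for 519 of the 600.

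**Figure D1:**
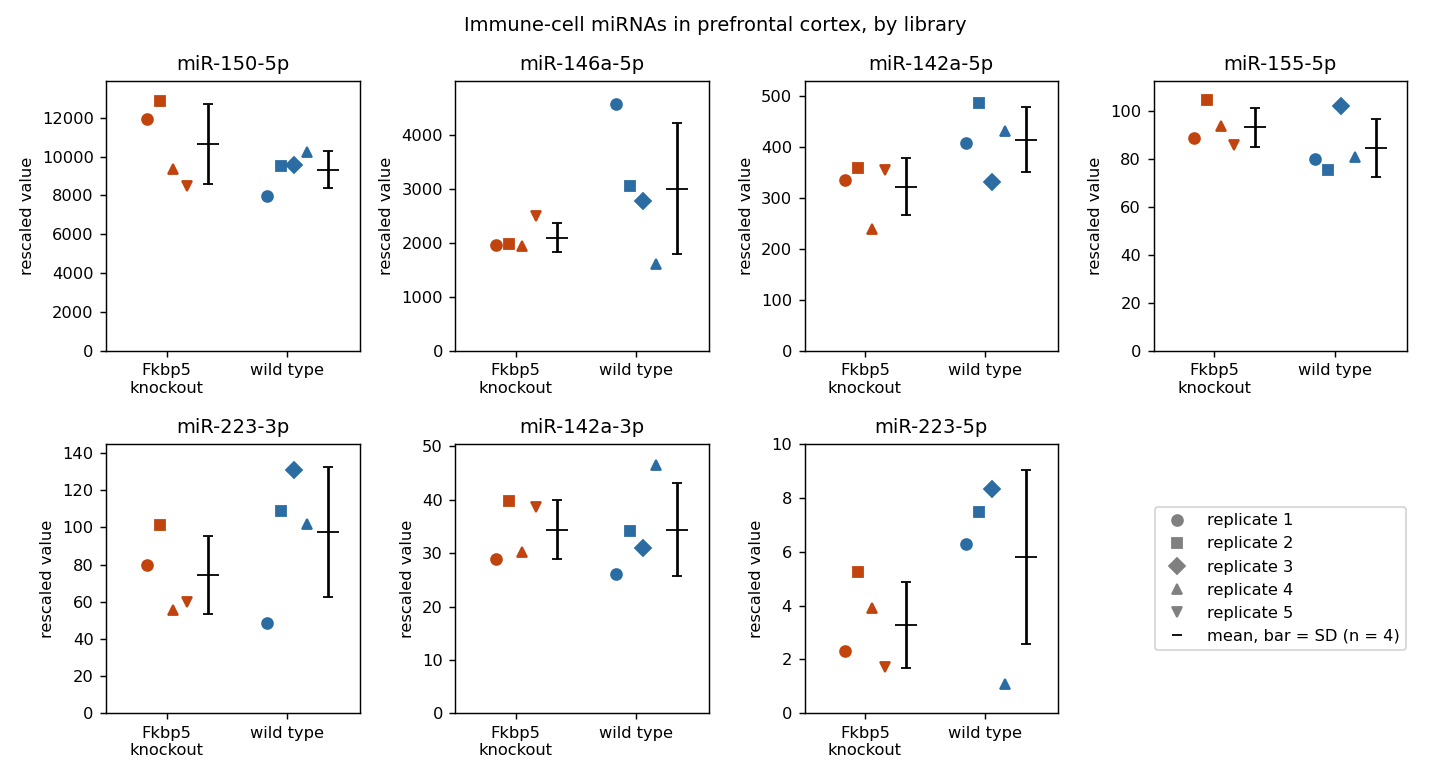
Rescaled value (no fixed unit, linear axis from 0) of each of the 7 miRNAs in each library, Fkbp5 knockout left and wild type right, with the marker shape giving the replicate number and black marks the mean ± SD (n = 4). The groups overlap for every miRNA; wild-type miR-146a-5p spreads from 1604 to 4565, and for miR-142a-5p 3 knockout libraries lie between 335 and 359, just above the lowest wild-type value of 332.

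The miR-142a products mark the whole haematopoietic lineage. miR-142a-5p was at 335, 359, 238 and 355 in knockout replicates 1, 2, 4 and 5, against 407, 487, 332 and 430 in wild-type replicates 1, 2, 3 and 4. Knockout replicate 4 lay below every wild-type library, and the other 3 knockout libraries lay just above wild-type replicate 3, the lowest of its group. The means were 322 ± 56.5 in the knockout and 414 ± 64.1 in wild type (SD, n = 4 each). The log2 fold change was -0.37 ± 0.17 (SE), with a 95% interval from -0.74 to 0.01. Its unadjusted p, 0.0544 by limma, was the smallest among the members and the 26th smallest of the 600. The effect did not pass adjustment. Without knockout replicate 4 the log2 fold change was -0.24, and without wild-type replicate 3 it was -0.46.

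miR-142a-3p, from the other arm, was at 28.9, 39.8, 30.3 and 38.6 in knockout replicates 1, 2, 4 and 5, against 26.1, 34.1, 30.9 and 46.6 in wild-type replicates 1, 2, 3 and 4. Every knockout library lay within the wild-type range. The means of 34.40 ± 5.59 in the knockout and 34.41 ± 8.75 in wild type were nearly equal, with a log2 fold change of 0.02 ± 0.23 and a 95% interval from -0.49 to 0.53.

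The 5p product of miR-142a was far above the 3p product in every library. Its excess was 11.6-, 9.03-, 7.87- and 9.18-fold in knockout replicates 1, 2, 4 and 5, against 15.6-, 14.3-, 10.7- and 9.24-fold in wild-type replicates 1, 2, 3 and 4. Knockout replicates 2, 4 and 5 were below every wild-type library and knockout replicate 1 was within the wild-type range. On the log2 scale the ratio was 3.20 ± 0.23 in the knockout and 3.59 ± 0.35 in wild type (SD, n = 4 each), a difference of -0.39 ± 0.20 (SE). By limma over 141 hairpins it was the 8th smallest p (0.0836, adjusted p = 0.9749); 0% of the hairpins passed adjustment and 2.13%, miR-142a not among them, had an unadjusted p under 0.05. The overlap with miR-142b described above falls on the 3p product only, and its part in the ratio was not tested.

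**Figure D2:**
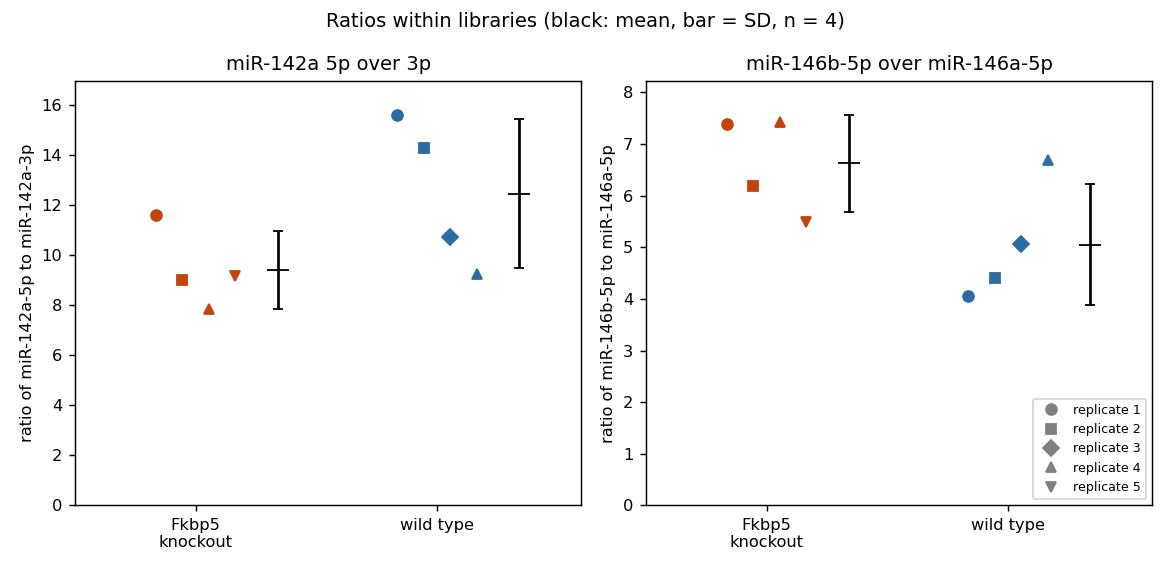
Ratio of miR-142a-5p to miR-142a-3p (left) and of miR-146b-5p to miR-146a-5p (right) within each library, on linear axes from 0, Fkbp5 knockout left of wild type, marker shape by replicate number, black marks the mean ± SD (n = 4). The miR-142a ratio runs from 7.87 to 11.6 in the knockout and from 9.24 to 15.6 in wild type, and the miR-146 ratio from 5.497 to 7.43 and from 4.05 to 6.69.

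The myeloid miRNA miR-223-3p had the widest spread within genotypes among the tested members. It was at 79.8, 101, 55.7 and 60.1 in knockout replicates 1, 2, 4 and 5, against 48.5, 109, 131 and 102 in wild-type replicates 1, 2, 3 and 4. Wild-type replicate 1 held the lowest value of all 8 and the other wild-type libraries the 3 highest. The means were 74.3 ± 20.9 in the knockout and 97.6 ± 34.9 in wild type, with a log2 fold change of -0.34 ± 0.30 and a 95% interval from -1.004 to 0.32. Without wild-type replicate 1 the log2 fold change was -0.63, and without wild-type replicate 3 it was -0.16. Its within-genotype SD on the log2 scale, 0.52, was above that of 87.3% of the tested miRNAs.

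miR-223-5p, the minor arm, had deposited values of 2, 5, 4 and 2 in knockout replicates 1, 2, 4 and 5, against 7, 9, 7 and 1 in wild-type replicates 1, 2, 3 and 4. Wild-type replicates 1, 2 and 3 were above every knockout library and wild-type replicate 4 was below all of them. With no filter on low values its log2 fold change was -0.54 (adjusted p = 0.926 by limma), a level so low that the added 1 shrinks it. The 3p arm was in excess in all libraries, by 14.25- to 35.0-fold in the knockout and by 7.71- to 92.0-fold in wild type.

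Of the inflammation-induced members, miR-146a-5p had the largest difference. It was at 1965, 1978, 1937 and 2491 in knockout replicates 1, 2, 4 and 5, against 4565, 3053, 2782 and 1604 in wild-type replicates 1, 2, 3 and 4. Wild-type replicates 1, 2 and 3 were above all knockout libraries, while wild-type replicate 4 was below all of them. The means were 2093 ± 266 in the knockout and 3001 ± 1218 in wild type, a log2 fold change of -0.43 ± 0.25 with a 95% interval from -0.99 to 0.12. Leaving out wild-type replicate 1 gave -0.19 and leaving out wild-type replicate 4 gave -0.71, so single wild-type libraries set its size. The range between the highest and the lowest library was 2.85-fold.

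Its paralogue miR-146b-5p, with the same seed, was the more abundant of the pair, at 13707 ± 1044 in the knockout and 14191 ± 3222 in wild type (log2 fold change -0.03 ± 0.15). The ratio of miR-146b-5p to miR-146a-5p was 7.38, 6.19, 7.43 and 5.497 in knockout replicates 1, 2, 4 and 5, against 4.05, 4.41, 5.05 and 6.69 in wild-type replicates 1, 2, 3 and 4. The groups overlapped through wild-type replicate 4. With 2 bases of difference, how reads were divided between these names depends on the authors' alignment settings, which are not given in the sources used here, so their levels are uncertain relative to each other.

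miR-155-5p, the product of activated macrophages and lymphocytes, had the smallest spread within genotypes among the tested members. It was at 89.0, 105, 93.8 and 85.9 in knockout replicates 1, 2, 4 and 5, against 80.0, 75.6, 102 and 80.9 in wild-type replicates 1, 2, 3 and 4. Wild-type replicate 3 lay among the knockout libraries, and each of the other wild-type libraries was below all 4 of them. The means were 93.3 ± 8.21 in the knockout and 84.7 ± 12.0 in wild type, a log2 fold change of 0.14 ± 0.16 with a 95% interval from -0.21 to 0.50. Without knockout replicate 2 it was 0.09 and without wild-type replicate 3 it was 0.25. Its within-genotype SD of 0.16 on the log2 scale was above that of 18.5% of the tested miRNAs. miR-155-3p, from the same hairpin, was at 0 in all 8 libraries.

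miR-150-5p, which in lymphocytes represses the transcription factor Myb, was at 11935, 12864, 9367 and 8463 in knockout replicates 1, 2, 4 and 5, against 7964, 9542, 9560 and 10262 in wild-type replicates 1, 2, 3 and 4. Knockout replicates 1 and 2 were above every wild-type library and the other knockout libraries were within the wild-type range. The means were 10657 ± 2080.2 in the knockout and 9332 ± 972 in wild type, with a log2 fold change of 0.18 ± 0.15 and a 95% interval from -0.14 to 0.50. Without knockout replicate 2 it was 0.08 and without knockout replicate 5 it was 0.26.

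The wider list of immune-related miRNAs gave no call either. Of 14 names, 5 were tested, 0 passed adjustment by limma (0% of all tested), and 0 had an unadjusted p under 0.05 (4% of all tested). By mean log2 value 3 were higher and 2 lower, with a median of 0.07. miR-21a-5p, raised in reactive glia and macrophages, was at 27961 ± 1650.3 in the knockout and 31284 ± 3133 in wild type. Its log2 fold change was -0.16 ± 0.10 (-0.10 without wild-type replicate 2, -0.24 without wild-type replicate 4). On the same scale miR-342-3p, from an intron of Evl, was at 0.22 ± 0.15 (0.06 without wild-type replicate 4, 0.31 without wild-type replicate 3). miR-342-5p was at 0.07 ± 0.15. miR-150-3p was at 0.14 ± 0.21 and miR-146b-5p at -0.03 ± 0.15. The 9 below the filter, among them miR-511-5p and miR-511-3p from the macrophage gene Mrc1 and miR-147-3p, reached at most 10.5 in any library, and 2 of them (miR-142b and miR-155-3p) were at 0 throughout.

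**Figure D3:**
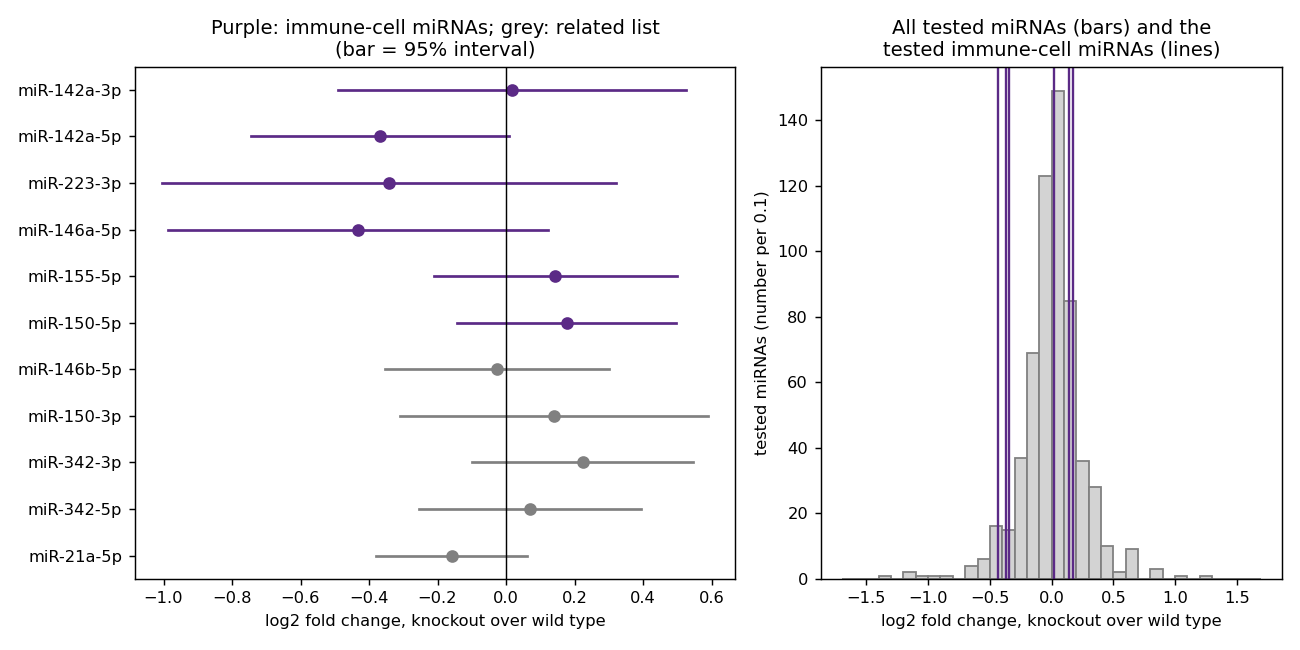
Left, log2 fold change (knockout over wild type, on the log2(value + 1) scale) with its 95% interval for the 6 tested immune-cell miRNAs (purple) and 5 related miRNAs (grey). Right, the number of tested miRNAs per 0.1 of log2 fold change, with purple lines at the 6; every interval includes 0, and the 6 run from -0.43 to 0.18.

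Whether the members varied together was measured over the 6 tested ones as Pearson's r and Spearman's rho of log2 levels over the 8 libraries, with two-sided exact permutation tests adjusted over the 15 pairs. No pair passed: r ran from -0.66 to 0.53, 8 pairs were positive and 7 negative, and the smallest adjusted exact p was 0.493. By exact permutation 0 of 15 had an unadjusted p under 0.05 with r, and 0 with rho. With the genotype means removed the smallest adjusted exact p was 0.305. The balance of signs moved with the scaling between libraries. Scaled to library totals, 9 pairs were positive and 6 negative, and with upper quartile scaling 10 and 5. In the values as deposited 12 were positive and 3 negative, and r ran from -0.13 to 0.63. Those values keep the unequal library totals, whose part in the signs was not tested.

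The products of the miR-142a hairpin, which share 1 precursor, had r = 0.31 (exact p = 0.468) and rho = 0.38 (exact p = 0.360) over the 8 libraries. Their r was 0.43 with library total scaling, 0.46 with upper quartile scaling and 0.59 in the values as deposited. miR-223-3p and miR-150-5p had the highest r, 0.53 (exact p = 0.185, rho 0.55 with exact p = 0.171), which was 0.79 with genotype means removed and 0.21 without wild-type replicate 1 and knockout replicate 4, the libraries farthest from the median of miR-223-3p. In the values as deposited it was 0.29. The lowest was that of miR-146a-5p with miR-150-5p, at -0.66 (exact p = 0.0735, rho -0.50 with exact p = 0.216, r = -0.57 without wild-type replicates 1 and 4). Next came miR-142a-5p with miR-155-5p, at -0.64 (exact p = 0.0815, rho -0.71 with exact p = 0.0576, r = -0.70 without knockout replicate 4 and wild-type replicate 2). miR-142a-3p with miR-146a-5p was at -0.62 (exact p = 0.0985, rho -0.40 with exact p = 0.327). That relation rested on wild-type replicates 1 and 4, without which r was 0.12. All 3 were nearer 0 in the values as deposited, without rescaling, where r was -0.10 for miR-146a-5p with miR-150-5p, 0.07 for miR-142a-5p with miR-155-5p and 0.02 for miR-142a-3p with miR-146a-5p. With upper quartile scaling they were -0.43, -0.18 and -0.10 in the same order, and with library total scaling -0.70, -0.49 and -0.40. Every adjusted p of these pairs was at least 0.493 for r and 0.649 for rho.

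In wild-type replicate 1 miR-142a-3p, miR-223-3p and miR-150-5p were all at their lowest and miR-146a-5p at its highest of the 8 libraries. Wild-type replicate 4 showed the highest miR-142a-3p and the lowest miR-146a-5p. The r of miR-146a-5p with its paralogue miR-146b-5p was 0.80 (rho = 0.36, described without a test), but it was -0.01 without the same 2 libraries. Library total was related to the members with r between -0.67 (miR-155-5p) and 0.63 (miR-146a-5p), also described without a test, and its part in the covariation was not tested.

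**Figure D4:**
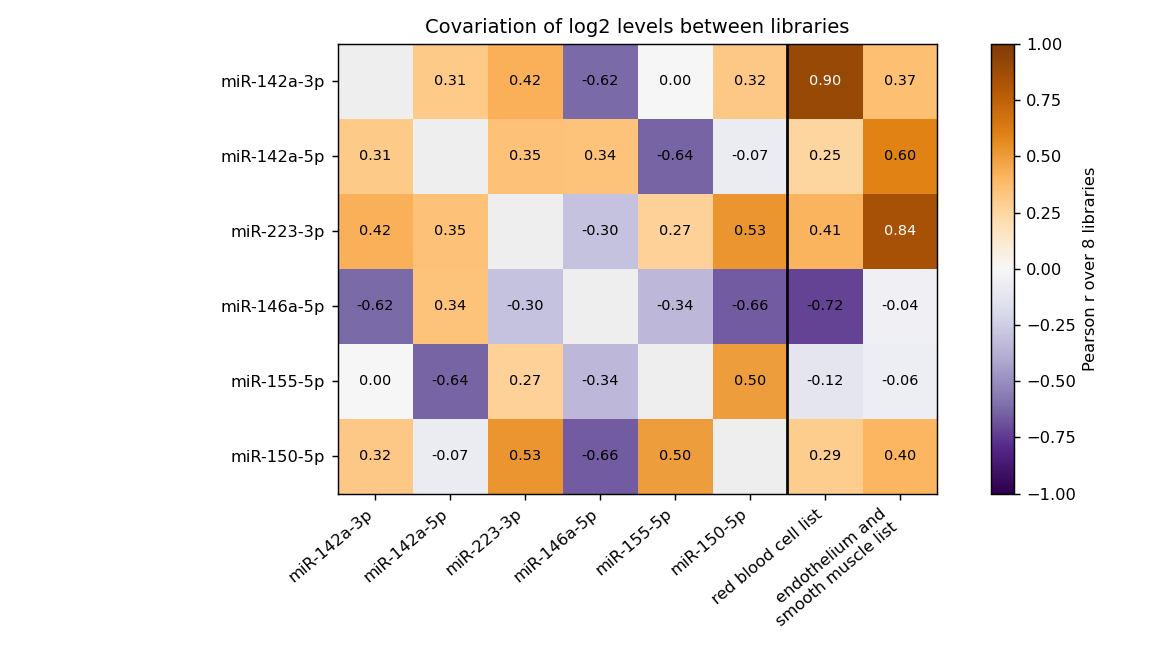
Pearson's r of log2 levels over the 8 libraries between the 6 tested immune-cell miRNAs, and, right of the line, between each of them and the mean log2 level of the red blood cell list and of the endothelium and smooth muscle list. Brown is positive and purple negative, on rescaled values (as deposited, the lowest r between members was -0.13); the highest value is 0.90 for miR-142a-3p with the red blood cell list.

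Each of the 6 was also compared with the mean log2 level of 5 red blood cell miRNAs (miR-451a, miR-144-3p, miR-144-5p, miR-486a-5p and miR-486b-5p) and of 4 miRNAs of endothelium and smooth muscle (miR-126a-3p, miR-126a-5p, miR-143-3p and miR-145a-5p), which makes 12 relations. miR-142a-3p was related to the red blood cell list, with r = 0.90 (exact p = 0.00102, adjusted p = 0.0122), and this was the only relation of the 12 to pass by r. By rank it did not pass (rho = 0.83, exact p = 0.0154, adjusted p = 0.0923). r was 0.90 with genotype means removed and 0.72 without wild-type replicates 1 and 4. With 1 library left out r stayed between 0.83 and 0.95, but it no longer passed when wild-type replicate 1 (adjusted exact p = 0.0976) or wild-type replicate 4 (0.0929) was left out. The relation leaned on miR-144-3p, the most variable of the list (r = 0.88 on its own): without it r was 0.69 (adjusted exact p = 0.228). Singly, r was 0.67 with miR-486a-5p and miR-486b-5p, 0.60 with miR-451a and -0.04 with miR-144-5p, the other arm of miR-144. miR-144-3p was low, at 9.25, 17.8, 15.6 and 19.7 in knockout replicates 1, 2, 4 and 5. In wild-type replicates 1, 2, 3 and 4 it was at 10.8, 18.3, 9.52 and 52.1. miR-486a-5p and miR-486b-5p have identical values, and counting them once gave r = 0.89. With library total scaling, upper quartile scaling and in the values as deposited r was 0.92 each time, with an adjusted exact p of at most 0.0167.

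The same list was related to miR-142a-5p, of the same hairpin, with r = 0.25 (exact p = 0.520), and to miR-223-3p with r = 0.41 (exact p = 0.335). miR-146a-5p ran the other way (r = -0.72, exact p = 0.0551, rho -0.52 with exact p = 0.197). That value rested on wild-type replicates 1 and 4, without which r was 0.11, and it was -0.14 in the values as deposited. The red blood cell miRNAs were all above 0 and summed to between 7418 and 9538 in the knockout and between 5788 and 10353 in wild type. These sums count the identical values of miR-486a-5p and miR-486b-5p under both names. By mean log2 value 2 of the 5 were higher (54% of all tested) and 3 lower (46%) in the knockout, and the median difference was -0.10. The 2 higher were miR-486a-5p and miR-486b-5p, so they are not separate measurements, and the median also counts both.

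miR-223-3p had its highest r with the endothelium and smooth muscle list, 0.84 (exact p = 0.00878, adjusted p = 0.0527; rho = 0.86, exact p = 0.0107, adjusted p = 0.0923), which did not pass over the 12 relations. r was 0.82 with genotype means removed and 0.69 without wild-type replicate 1 and knockout replicate 4. It passed without wild-type replicate 2 (adjusted exact p = 0.0286) or wild-type replicate 3 (0.0238). Its r was 0.68 in the values as deposited (adjusted exact p = 0.169). Its r with each of the 4 listed miRNAs ran from 0.66 (miR-143-3p) to 0.79 (miR-126a-5p). The list summed to between 55398 and 87044 in the knockout and between 72864 and 101602 in wild type. All 4 were lower in the knockout by mean log2 value (median -0.10), where 46% of all tested miRNAs were lower. For miR-126a-3p (-0.07 ± 0.11, SE), miR-126a-5p (-0.12 ± 0.17) and miR-145a-5p (-0.07 ± 0.23) the difference was smaller than its error, and miR-143-3p was at -0.42 ± 0.17. How far vessel or blood content contributes to the level of miR-223-3p was not tested.

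For each of the 6, the 3 miRNAs of most similar pattern were taken as those with the highest r over the 8 libraries among the other tested miRNAs with a mean rescaled value of at least 50, which left 433 or 434 to choose from. None of those chosen was an immune-cell miRNA of the set. miR-142a-3p and miR-223-5p, with means of 34.4 and 4.55, could not be chosen, and the other members were few among the candidates. So their absence does not show whether the members vary together. Those chosen were miR-1839-3p (r = 0.93), miR-15b-5p and miR-130a-3p for miR-142a-3p, and miR-1983 (0.94), miR-338-3p of oligodendrocytes and miR-378c for miR-142a-5p. miR-24-1-5p (0.87), miR-199a-5p and miR-30b-5p came nearest to miR-223-3p, and miR-344d-3-5p (0.92), miR-222-5p and miR-9-3p, the last an abundant neural miRNA, to miR-146a-5p. The nearest to miR-155-5p were miR-501-3p (0.82), miR-671-3p and miR-138-1-3p, and to miR-150-5p miR-125b-5p (0.94), miR-877-5p and miR-137-5p. These values are the highest among many candidates over 8 points and are given as descriptions.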

How the data were processed

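Small RNA libraries were made from column-enriched short RNA with a NEXTflex kit and selected by size on a gel, per the labels' protocols. Per the submitters' processing notes the build was mm10 and the tools included HTSeq 0.6.1p1, Bowtie 1.1.2, edgeR and cutadapt 1.11; their order and settings are not given. Per the file headers, the authors deposited normalized counts. The headers describe no normalizing step, and whether one was applied is not known. These deposited values are whole numbers with unequal totals and were handled as a score, not as raw counts. So no count model was run and the precision set by depth is unknown.

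Values were rescaled by a trimmed mean of log ratios (30% of ratios and 5% of levels trimmed at each end; factors 0.840 to 1.20). log2(value + 1) was tested with limma 3.58.1 in R 4.3.3 with a mean-variance trend, on miRNAs reaching 10 in at least 4 libraries, with 95% intervals. Arm ratios used 0.5 added to each arm and a mean of at least 20. Correlations used exact permutation over 40320 pairings, with Benjamini-Hochberg adjustment. The limma and correlation steps were checked on simulated data. Members and lists were chosen with earlier results of these data known. The text names all members, their 3 nearest miRNAs by r, and a related immune list. Other scalings, filters, pseudocounts, leaving out each library and a replicate block were tried.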

Additional observations from a re-analysis of the deposited data

Results flagged for a closer look

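A single library lay far from its group in 3 of the 38 sets of 4 values that were looked at. Chance alone gives 1.9 if values are normally distributed, which was not checked. The sets are not independent, since ratios and miRNAs that enter them were both looked at. Knockout replicate 5 stood apart for miR-146a-5p, at a rescaled value of 2491 beside 1937 to 1978 in the other knockout libraries. Knockout replicate 4 stood apart for miR-150-3p, at 58.6 beside 48.1 to 49.8. Wild-type replicate 4 stood apart in the ratio of miR-223-3p to miR-223-5p, at 92.0 beside 7.71 to 15.7, a ratio whose denominator was a deposited value of 1.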

How the results depend on the processing

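Leaving miR-486b-5p or miR-144-3p out of the red blood cell list, other scalings of the list relations and the unblocked arm ratios on numbers 1, 2 and 4 were chosen after seeing the data. Across 111 alternative values for the 6 tested members, 0 passed the threshold and 6 had the other direction, all 6 of them for miR-142a-3p, whose main value is near 0. miR-142a-3p ran from -0.0934 (without wild-type replicate 1) to 0.16 with 1 library left out. With 1 library left out, miR-342-3p ran from 0.064 to 0.31, miR-342-5p from -0.0038 to 0.14, miR-146b-5p from -0.16 to 0.12 and miR-150-3p from -0.0073 to 0.25. The count of miRNAs past adjustment was 0 in all 19 alternatives. The 24 with an unadjusted p under 0.05 became 13 with upper quartile scaling, 9 in the values as deposited and 38 in the libraries numbered 1, 2 and 4, where the cause was not tested, 50 without a filter (1330 tested) and 13 at a mean of 10 ppm (324 tested). Of the 12 relations to the 2 lists the number past adjustment was 1, with 0 (without wild-type replicate 1 or 4) to 2 (without wild-type replicate 2 or 3) when 1 library was left out and 0 without miR-144-3p.

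Same-numbered libraries had deviations correlated at 0.0852, -0.0470 and 0.122. Of their 6 libraries only knockout replicate 4 correlated best with its own number, so the numbers were not taken as pairs. A replicate block on numbers 1, 2 and 4 gave 2 hairpin arm ratios past adjustment, neither of them miR-142a, against 0 in the same libraries unblocked and 0 in all 8, and put miR-142a-3p at -0.0742, as did the same libraries unblocked (-0.0742). Where each arm had to average 100 or more, the miR-142a ratio could not be tested.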
